A study of Homo sapiens with 2 samples.

Results

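The Notch receptors, ligands and target genes of the human lung carcinoma line A427 were compared between its attached and its floating, sphere-forming cells. The 10 genes were taken by symbol from 23686 gene symbols in the deposited tables: the receptors NOTCH1, NOTCH2 and NOTCH3, the ligands JAG1, JAG2 and DLL1, and the targets HES1, HEY1, NRARP and HES4. A427 is a non-small cell lung carcinoma line, called CTNNB1-mutated in the series title and WT in the genotype label, which names no gene. Both groups were A427 cells kept in RPMI 1640 medium that held 5% fetal bovine serum, and the labels name no other agent: adherent cells in one, floating cells that form spheres in the other. Poly(A) RNA was sequenced in 1 library of each, of 26384670 and 27148842 gene-assigned reads, and no coordinates are given for the genes because the annotation in hand is on another build than the files.

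Notch is a receptor system between neighbouring cells. A ligand of the Delta or Jagged family on one cell pulls on a Notch receptor of the next, ADAM proteases and gamma-secretase then cut the receptor, and its freed intracellular part enters the nucleus. There it joins the DNA-binding protein RBPJ and a Mastermind-like coactivator (MAML) at target genes, among them the HES and HEY repressors and NRARP, a small protein that limits the signal. In lung epithelium the pathway takes part in the choice between secretory, ciliated and neuroendocrine fates.

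With 1 library per growth form there was no replicate, so the differences below carry neither a test nor a p-value. A ratio compares the floating with the adherent library after TMM scaling of the counts (trimmed mean of M values), and the 95% interval beside it comes from the exact binomial distribution of the reads, so it leaves out any variation from culture to culture. A gene counted as past the 2-fold rule if it was 2-fold or more apart and its interval did not hold 0 on the log2 scale. Of all genes, 13131 reached 1 CPM (reads per 1000000, scaled) in at least one library and were compared, and all 10 Notch genes were among them. Since these are bulk libraries, fewer cells that express a gene and less of its RNA per cell cannot be told apart.

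Of the epithelial markers, EPCAM (615 and 582 TPM, transcripts per 1000000, in adherent and floating cells), KRT8 (327 and 581 TPM) and KRT18 (342 and 613 TPM) were abundant and CDH1 was at 18.9 and 13.9 TPM, while KRT19 had 8 and 22 reads. Of the leukocyte markers, CD3E had 0 reads in both libraries, CD14 had 2 and 1, and PTPRC had 159 and 121. Of 3 endothelial markers CDH5 had 0 reads in both, PECAM1 0 and 2, and VWF 14 and 44. Of the lung neuroendocrine markers CHGA had 1 and 0 reads, INSM1 2 and 4, and SYP 569 and 374. The part of these differences in the results below was not tested.

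The promoters of 3 target genes are shown, and no entry was found for HEY1, the remaining target. The windows of HES1 and HES4 both hold the exact core of the RBPJ motif close to the start, while that of NRARP does not. Whether the motif bears on the ratios below was not tested. Each sequence is the 250 bases before the transcription start in RefSeq, 5′ to 3′ on the gene's strand, on GRCh38.p14: HES1 at chr3:194135898-194136147 (plus strand), HES4 at chr1:1000098-1000347 (minus strand) and NRARP at chr9:137302272-137302521 (minus strand). Capitals mark TGGGAA, the core of the RBPJ motif, searched on both strands.
HES1: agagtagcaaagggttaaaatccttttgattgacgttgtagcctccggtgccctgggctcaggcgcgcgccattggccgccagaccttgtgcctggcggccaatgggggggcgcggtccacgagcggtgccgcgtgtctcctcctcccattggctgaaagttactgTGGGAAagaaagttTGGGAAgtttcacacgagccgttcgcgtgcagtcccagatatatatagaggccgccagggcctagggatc
HES4: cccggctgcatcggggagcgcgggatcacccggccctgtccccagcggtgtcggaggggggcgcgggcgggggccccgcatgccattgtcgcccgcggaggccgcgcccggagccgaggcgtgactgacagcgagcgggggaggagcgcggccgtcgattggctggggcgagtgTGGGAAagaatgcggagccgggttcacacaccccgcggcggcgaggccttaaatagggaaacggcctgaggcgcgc
NRARP: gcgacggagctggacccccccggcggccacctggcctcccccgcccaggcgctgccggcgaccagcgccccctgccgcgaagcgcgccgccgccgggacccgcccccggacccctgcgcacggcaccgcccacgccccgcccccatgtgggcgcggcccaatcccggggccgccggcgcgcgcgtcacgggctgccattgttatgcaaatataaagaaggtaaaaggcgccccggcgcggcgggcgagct

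The HES1 window held 2 copies of TGGGAA on the gene's own strand, beginning 84 and 70 bases before the start with 8 bases between them. The HES4 window held 1 copy on its own strand, 76 bases before the start. Over all 35116 promoter windows of this length, 20.8% held TGGGAA on either strand and 1.70% held at least 2 copies on one strand. The longer form GTGGGAA, which contains TGGGAA, was found in both the HES1 and the HES4 window, against 5.43% of all windows. Entries were found for 8 of the 10 genes, all but DLL1 and HEY1, and among them only HES1 and HES4 held TGGGAA. The N-box CACNAG, a motif bound by HES proteins themselves, occurred 3 times in the HES1 window and 1 time in that of NOTCH3 and in none of the other 6, against 32.0% of all windows. These matches describe letters in the windows and are not measured sites of binding. Only exact letters were searched, so variant forms of the RBPJ site are not in the counts of any window.

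In TPM, which allows for transcript length, the ligand JAG2 was the most abundant of the 10 genes in both libraries. In adherent cells the order by TPM was JAG2, NOTCH2, HES1, HES4, NRARP, NOTCH3, NOTCH1, DLL1, HEY1 and JAG1. The neighbours NOTCH2 and HES1, HES1 and HES4, DLL1 and HEY1, and HEY1 and JAG1 had overlapping counting intervals and cannot be ordered. In floating cells HES1 stood below HES4 and NRARP, NOTCH3 below NOTCH1, and HEY1 below JAG1, with intervals that did not overlap. Overlapping neighbours there were NOTCH2 and HES4, and DLL1 and JAG1. Levels spanned from 1.15 TPM (JAG1) to 87.9 TPM (JAG2) in adherent cells and from 0.86 TPM (HEY1) to 71.9 TPM (JAG2) in floating cells, as the plot of levels shows.

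**Figure D1:**
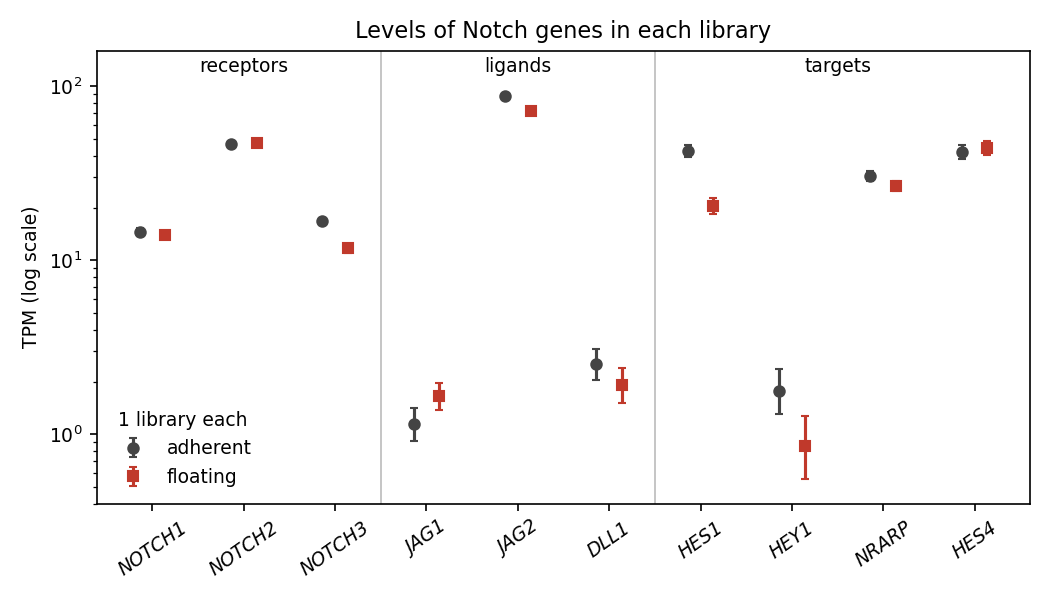
TPM of each of the 10 genes on a log axis in the adherent (circle) and floating (square) library, 1 library each, with 95% counting intervals. HES1 stands at 42.5 TPM (adherent) and 20.5 TPM (floating), whereas HES4 (41.9 and 44.4 TPM) and NOTCH2 (46.5 and 47.0 TPM) lie at nearly the same height in both.

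Past the 2-fold rule 2 of the 10 genes, HES1 and HEY1, were lower and none was higher in floating cells. Among all tested genes 0.754% were lower and 1.28% higher by the same rule. HEY1, at 1.79 CPM in adherent and 0.88 CPM in floating cells, passed the 1 CPM filter only through the adherent library, where it is higher. At 1.2-fold under the same condition on the interval, HES1, HEY1 and NOTCH3 were lower and JAG1 was higher, against 12.5% of all tested genes lower and 12.1% higher. The counting interval lay below 0 on the log2 scale for 4 genes and above 0 for 2, against 25.6% and 25.5% of all tested genes. The median log2 ratio of the 10 genes was -0.19, and that of all tested genes -0.005. The genes were picked with earlier results of these libraries known, so the counts describe them and do not show that they stand apart.

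**Figure D2:**
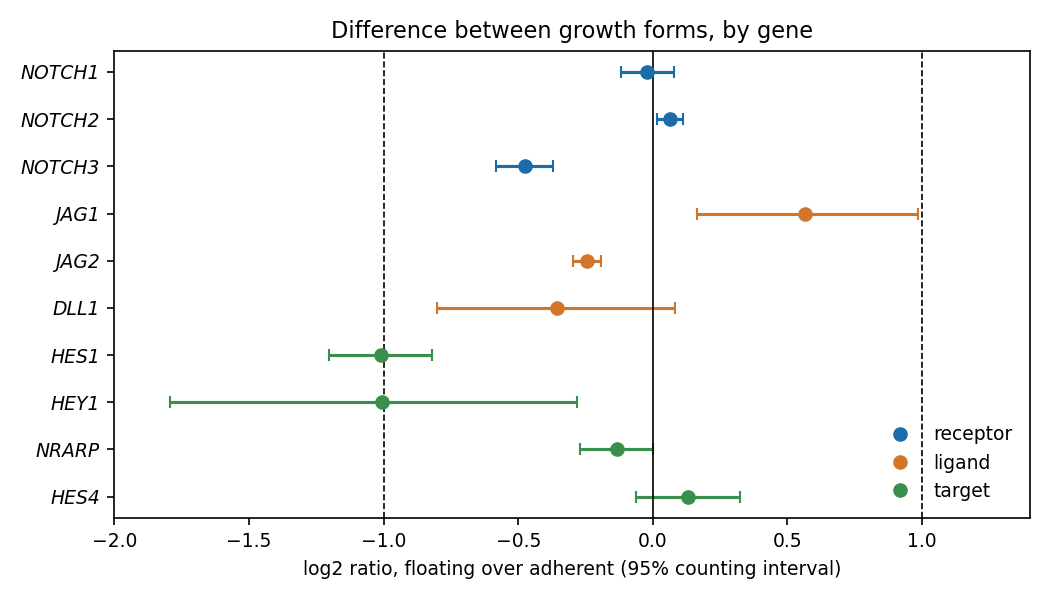
Log2 ratio of floating over adherent for each gene with its 95% counting interval, coloured by role; dashed lines mark 2-fold. HES1 and HEY1 lie at the lower 2-fold line, with an interval of -1.203 to -0.82 for HES1 and a wider one of -1.79 to -0.28 for HEY1, and JAG1 lies at 0.57.

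Among the receptors, NOTCH3 was lower in floating cells and the ratios of NOTCH1 and NOTCH2 lay near 0. NOTCH3, the receptor best known from vascular smooth muscle and also expressed in lung tumours, had 1662 reads in adherent and 1236 in floating cells, or 16.8 and 11.7 TPM. It was lower in floating cells by 1.39-fold (interval 1.29 to 1.499), and 5.11% of all tested genes had a ratio as low or lower. NOTCH1, the receptor with the broadest developmental roles, had 1663 and 1697 reads, 14.5 and 13.9 TPM, and a log2 ratio of -0.02 whose interval includes 0 (-0.12 to 0.08).

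NOTCH2 was the most abundant receptor transcript, with 6565 and 7097 reads and 46.5 and 47.0 TPM. Its log2 ratio was 0.06 (interval 0.01 to 0.11), a 1.04-fold difference. NOTCH2 shares near-identical sequence with NOTCH2NL, and its estimated counts have decimals in the deposited table, unlike those of the other 9 genes, so the split between the pair is uncertain. Summed over both genes the reads were 7013 and 7632 and the log2 ratio 0.07. NOTCH4, an endothelial receptor, had 16 and 10 reads and was not compared.

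The receptors can also be set against each other within each library, which does not depend on how the libraries were scaled. NOTCH3 had 1.15 times the TPM of NOTCH1 in adherent cells and 0.842 times in floating cells. The ratio of NOTCH3 to NOTCH1 reads was 1.37-fold lower in the floating library (interval 1.24 to 1.52) and that of NOTCH3 to NOTCH2 was 1.45-fold lower (1.34 to 1.58). For NOTCH2 against NOTCH1 the ratio between libraries was 1.06, with an interval that includes 1 (0.982 to 1.14). These are 3 of 11 such pairs that were computed, chosen after the values were seen. Of the summed TPM of the 4 receptor genes, NOTCH2 made up 59.6% in adherent and 64.6% in floating cells, NOTCH3 21.5% and 16.1%, and NOTCH1 18.6% and 19.1%.

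Among the ligands JAG2 was lower and JAG1 higher in floating cells, at very different levels. JAG2 had 6189 reads in adherent and 5403 in floating cells, or 87.9 and 71.9 TPM, and was lower in floating cells by 1.19-fold (interval 1.14 to 1.23). Of all tested genes 16.8% had a ratio as low or lower. JAG1, the Jagged ligand altered in Alagille syndrome, had 84 and 129 reads, or 1.15 and 1.66 TPM. It was higher in floating cells by 1.48-fold (1.12 to 1.98), and 96.3% of all tested genes had a ratio as low or lower. In GENCODE v29 JAG2 shares 469 exon bases with AL512356.1 on the same strand and JAG1 shares 79 with AL050403.2 on the opposite strand. Neither of these genes is listed in the count table under that name, so whether their reads entered the counts of JAG2 and JAG1 was not tested. DLL1, a Delta-type ligand, had 99 and 80 reads, 2.54 and 1.92 TPM, and a log2 ratio of -0.35 with an interval that includes 0 (-0.80 to 0.08).

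Set against JAG2, the reads of JAG1 were 1.76-fold higher in the floating library (interval 1.32 to 2.35). Set against DLL1 they were 1.90-fold higher (1.25 to 2.90), and DLL1 against JAG2 gave a ratio of 0.926 with an interval that includes 1 (0.679 to 1.26). JAG2 nevertheless made up 90.0% of the summed TPM of 5 canonical ligand genes in adherent and 85.5% in floating cells, and JAG1 1.18% and 1.97%. DLL3, a Delta-like protein that is found mostly inside the cell and inhibits Notch in the same cell, made up 5.98% and 10.1% of it, with 138 and 212 reads and a log2 ratio of 0.57 (interval 0.25 to 0.89). DLL4, the ligand of sprouting vessels, had 11 and 6 reads and was not compared.

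**Figure D3:**
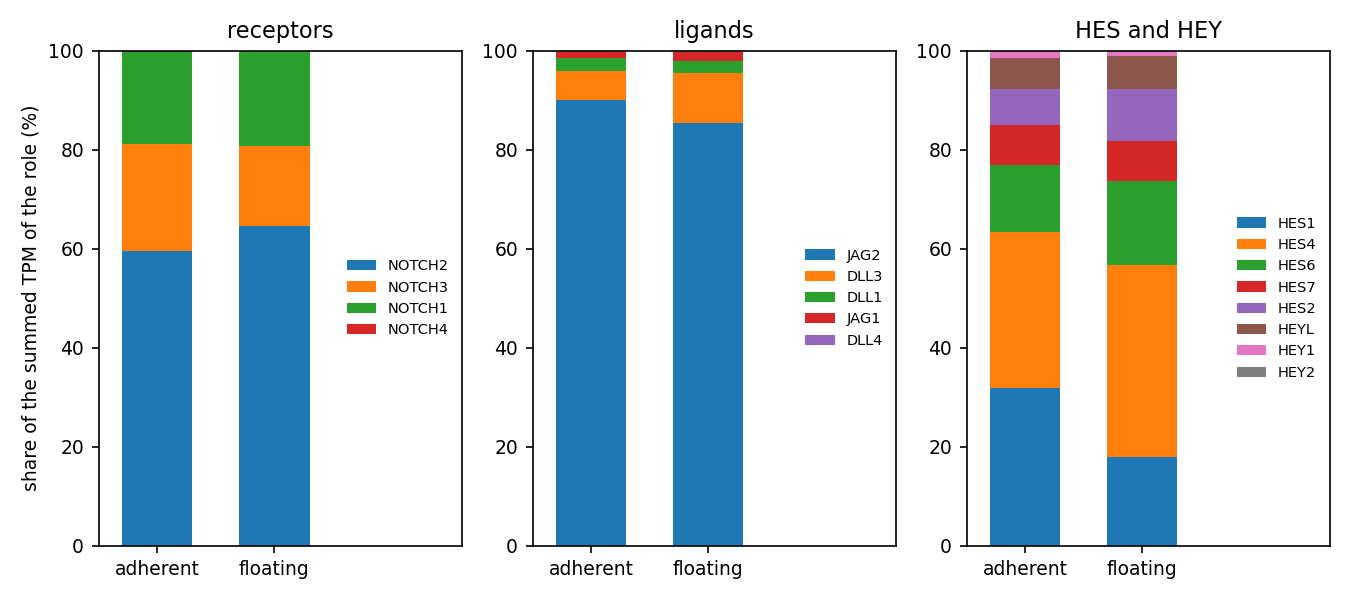
Share of each gene in the summed TPM of 4 receptor genes, 5 ligand genes and 10 HES and HEY genes, in the adherent and the floating library; genes at 0 in both are left out of the legend. NOTCH2 and JAG2 hold the largest share of their role in both libraries, and HES1 makes up 31.9% of the HES and HEY sum in adherent and 17.9% in floating cells.

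Among the targets HES1 and HEY1 were lower in floating cells, while the ratios of NRARP and HES4 lay near 0. HES1, a basic helix-loop-helix repressor that holds back differentiation, had 670 reads in adherent and 344 in floating cells, or 42.5 and 20.5 TPM. It was lower in floating cells by 2.01-fold (interval 1.77 to 2.30), an interval that spans the 2-fold line. Of all tested genes 0.731% had a ratio as low or lower, and of the 10139 genes of at least 10 CPM in one library 0.316% did. HEY1, a repressor of the related HEY family, had 47 and 24 reads, or 1.78 and 0.86 TPM. It was also 2.01-fold lower, but with an interval from 1.21 to 3.46, and it missed 2-fold with DESeq2 size factors, library totals, TPM and a prior count of 5 (log2 ratio -0.89 with the last).

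NRARP, which binds the Notch intracellular domain and RBPJ and dampens the signal, had 922 and 869 reads, or 30.4 and 26.8 TPM. Its log2 ratio was -0.13, and the interval just includes 0 (-0.27 to 0.0008). HES4, a close relative of HES1, had 418 and 473 reads, or 41.9 and 44.4 TPM, with a log2 ratio of 0.13 and an interval that includes 0 (-0.06 to 0.32). The log2 ratios of the 4 targets thus ran from -1.01 to 0.13.

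HES1 and HES4 were at like levels in adherent cells and apart in floating cells. Their ratio in TPM was 1.01 in adherent and 0.461 in floating cells, and in reads HES1 against HES4 was 2.20-fold lower in the floating library (interval 1.82 to 2.66). HES1 against NRARP was 1.84-fold lower (1.56 to 2.16). HES1 against HEY1 gave a ratio between libraries of 1.01, with the wide interval from 0.591 to 1.75 that the few HEY1 reads allow. HES4 had 1.38 times the TPM of NRARP in adherent and 1.66 times in floating cells, and the interval of that change in reads ran from 1.02 to 1.41. The promoter windows printed above hold the RBPJ core in HES1 and HES4, whose ratios lay apart, and not in NRARP. The windows do not cover sequence elsewhere at these genes, and whether the motif bears on the ratios was not tested.

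**Figure D4:**
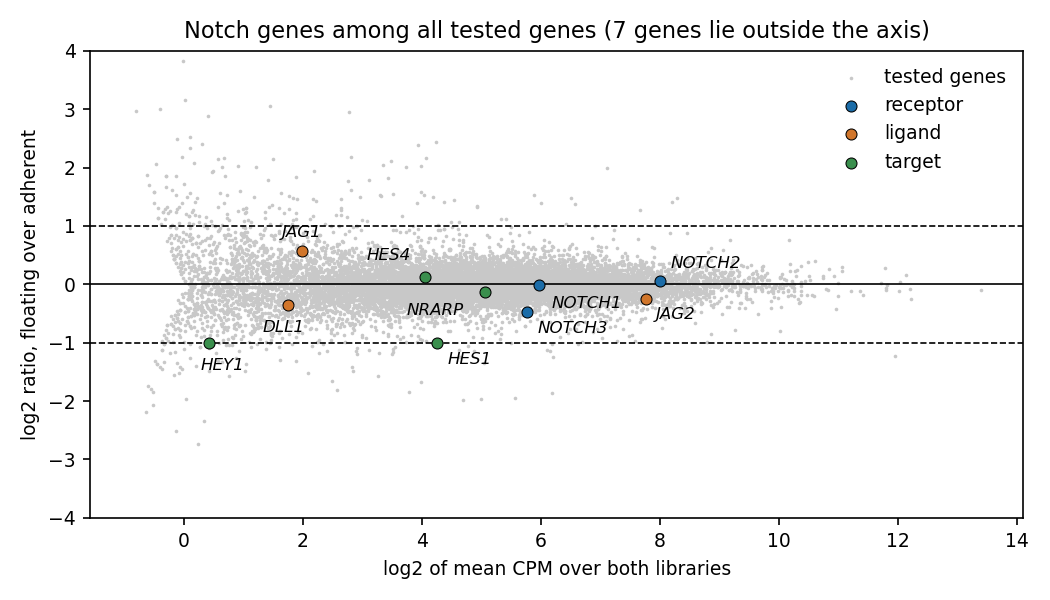
Log2 ratio of floating over adherent against the log2 of the mean CPM for 13131 tested genes (grey), with the 10 Notch genes coloured by role; dashed lines mark 2-fold, and 7 genes lie beyond the axis at 4. HES1 sits near the lower edge of the genes of its level, HEY1 lies among widely spread genes of few reads, and NOTCH1 and NOTCH2 lie close to 0.

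The other HES and HEY genes had ratios on both sides of 0. Of the 13 genes in the list of HES, HEY and related genes, 9 were compared, with a median log2 ratio of -0.03. Past 2-fold 2 were lower (HES1 and HEY1) and none higher, against 0.754% and 1.28% of all tested genes. HEY1 passed the 1 CPM filter only through the adherent library, where it is higher. Whether each listed gene responds to Notch in A427 was not tested. BHLHE40, a basic helix-loop-helix repressor of the clock and of stress responses, was at 28.6 and 39.9 TPM and had the highest log2 ratio of the list, 0.52 (interval 0.41 to 0.64). HES2 was at 9.73 and 11.98 TPM with a log2 ratio of 0.35 (0.18 to 0.52). The intervals of HES6 (log2 ratio 0.17), HES7 (-0.18) and HEYL (-0.03) include 0. HES3 and HES5 had 0 reads in both libraries, a count that leaves room for levels of at most 0.114 CPM (adherent) and 0.1102 CPM (floating), and HEY2 had 9 and 11 reads. The core TGGGAA was found in the promoter windows of 7 of the 12 matched genes of this list, among them HES5 and HEYL. None of 4 receptor and 4 matched ligand genes held it, and 20.8% of all windows did. For NOTCH1 and NOTCH2 the bases after the start were not found in a transcript of the gene, so their windows are less certain. Whether the lists differ in the motif was not tested.

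The wider pathway was described by 10 lists of 83 genes in all, from receptors to proneural factors, of which 66 were compared. In addition to HES1 and HEY1, MAML3 was lower and NEURL higher past the 2-fold rule, together 3 lower and 1 higher. By that rule 0.754% of all tested genes were lower and 1.28% higher. HEY1 is counted here although it passed the 1 CPM filter only through the adherent library. At 1.2-fold 15 of the 66 were lower and 5 higher, against 12.5% and 12.1% of all tested genes. The counting interval lay below 0 for 24 and above 0 for 12, against 25.6% and 25.5% of all tested genes, and the interval counts of the lists that follow are to be read beside these shares. Without the 10 genes above, the other 56 compared genes had a median log2 ratio of -0.05, with 12 lower and 4 higher at 1.2-fold. The plot of pathway genes by step shows their spread.

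**Figure D5:**
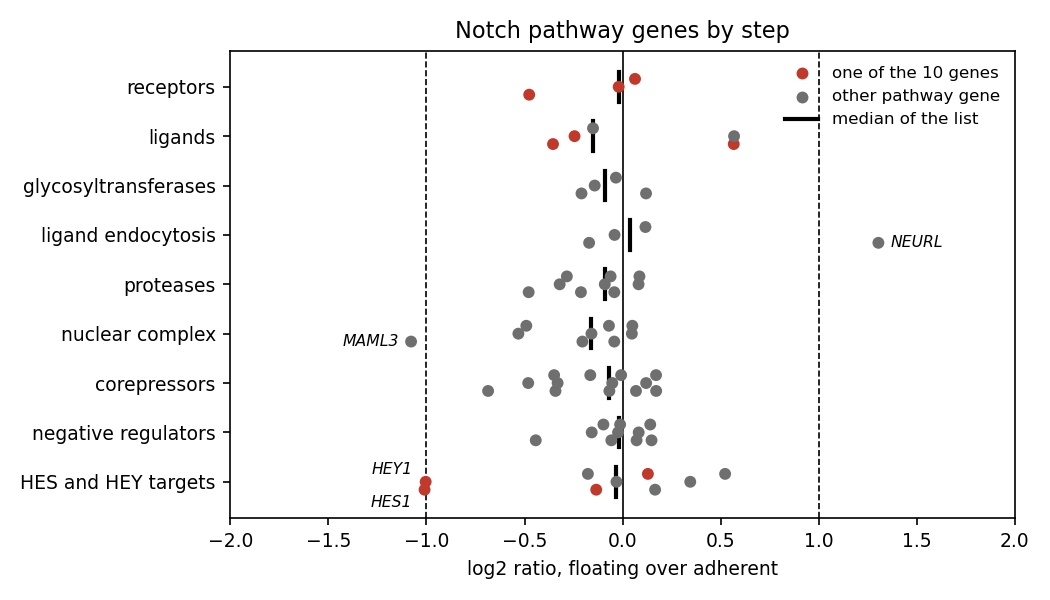
Log2 ratio of floating over adherent for the compared genes of 9 pathway lists, 1 point per gene, with the median of each list as a bar; dashed lines mark 2-fold. Most points lie between -0.5 and 0.5, with MAML3 and NEURL beyond the 2-fold lines and HES1 and HEY1 at the lower one.

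In the nuclear complex the DNA-binding partner RBPJ was at 27.4 and 27.5 TPM, with a log2 ratio of 0.05 and an interval that includes 0 (-0.04 to 0.14). All 3 Mastermind-like coactivators had intervals below 0, at very different levels. MAML3 had 419 reads in adherent and 205 in floating cells, or 4.84 and 2.22 TPM, and was lower in floating cells by 2.11-fold (interval 1.79 to 2.51). MAML2 (1.39 and 0.93 TPM) had a log2 ratio of -0.53 and MAML1, at 43.1 and 37.4 TPM the most abundant of the 3, one of -0.16 (interval -0.23 to -0.08). MAML3 against MAML1 was 1.89-fold lower in the floating library (1.59 to 2.27). In GENCODE v29 MAML3 shares 252 exon bases with MGST2 on the other strand, but MGST2 had 0 reads in both libraries. The acetyltransferase KAT2A had the highest TPM of this list (101 in both libraries) and the highest ratio (log2 ratio 0.05, interval -0.02 to 0.11), while KAT2B had a log2 ratio of -0.49 (-0.58 to -0.40). Over the 9 genes of the list the median was -0.16, with 5 intervals below 0 and none above (25.6% and 25.5% of all tested genes).

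Proteases that cut the receptor gave a median log2 ratio of -0.09 over 9 genes, with 4 intervals below 0 and 1 above (25.6% and 25.5% of all tested genes) and none past 2-fold. APH1B, a gamma-secretase subunit, was lowest, at 6.81 and 4.74 TPM with a log2 ratio of -0.48 (interval -0.72 to -0.24). Its paralogue APH1A had the highest TPM of the list (114 and 108) and a log2 ratio of -0.04. The subunit PSENEN had the highest ratio (log2 ratio 0.09, interval -0.09 to 0.26). ADAM10, the protease that makes the ligand-dependent cut, was at 71.2 and 55.2 TPM with a log2 ratio of -0.32 (-0.39 to -0.25).

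Of the enzymes that modify receptors or drive ligand endocytosis, a gene of few reads was past 2-fold. NEURL (the current symbol is NEURL1), a ubiquitin ligase related to the fly neuralized protein that drives ligand endocytosis, had 31 reads in adherent and 80 in floating cells, or 0.60 and 1.45 TPM. It was higher in floating cells by 2.47-fold (interval 1.63 to 3.91). MIB1, the main ubiquitin ligase of Notch ligands and the gene of highest TPM in that list, was at 35.4 and 33.4 TPM with a log2 ratio of -0.04. NEURL1B was lowest, with a log2 ratio of -0.17 (interval -0.27 to -0.07). Of the glycosyltransferases, which set how well receptors bind each ligand, 4 of 5 were compared and none was past 1.2-fold. Their log2 ratios ran from -0.21 for LFNG (66 and 59 reads) to 0.12 for RFNG, and POFUT1 had the highest TPM, 54.9 and 51.7.

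Corepressors that occupy RBPJ or are recruited by HES proteins had a median log2 ratio of -0.07 over 13 genes, with 7 intervals below 0 and 3 above (25.6% and 25.5% of all tested genes) and none past 2-fold. TLE4, a Groucho-type corepressor to which HES proteins bind, was lowest, at 6.32 and 3.80 TPM with a log2 ratio of -0.69 (interval -0.93 to -0.44). Of the other Groucho-type TLE genes, TLE3 was at -0.48 (-0.59 to -0.37), TLE2 at -0.33 and TLE1 at 0.07 with an interval that includes 0. The deacetylase HDAC1 (-0.35) and CIR1 (-0.34) lay between TLE3 and TLE2. NCOR1 had the highest ratio (log2 ratio 0.17, interval 0.13 to 0.21), and AES, a short Groucho-type protein, the highest TPM (542 and 502). Among negative regulators of the pathway 10 of 11 were compared, with a median of -0.02, 2 intervals below 0 and 2 above. DTX3 was lowest (log2 ratio -0.44, interval -0.63 to -0.25), CDK8 highest (0.15, interval -0.04 to 0.34), and the mediator cyclin CCNC had the highest TPM (77.2 and 82.1). NUMB, which sends receptors to degradation, had a log2 ratio of -0.16 (-0.24 to -0.08).

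The receptor, ligand and proneural lists complete the pathway. Of 8 ligand genes 5 were compared, with a median log2 ratio of -0.15 and 2 intervals above 0 and 1 below. None of 7 proneural factors, several of which HES1 is known to repress, reached 1 CPM in either library. NEUROG1, NEUROG3 and ATOH1 had 0 reads in both, and NEUROD1, NEUROG2 and INSM1 had at most 4 reads.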

How the data were processed

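Per the submitters' processing notes, FastQC 0.11.1, STAR 2.5.3a, RSEM 1.3.3 and the build hg19 were used. Not given in the sources used here were the gene annotation, program settings and strand handling. The authors deposited estimated counts per gene symbol, without normalization, and TPM, which the authors scaled, each with 1 column per library, named as the sample's title. The counts were rounded to whole numbers, 6.38% of adherent and 6.55% of floating values having decimals.

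Libraries were scaled by TMM in edgeR 4.0.16 (R 4.3.3), and log2 ratios were taken on (count + 0.5) per effective library size, over genes of at least 1 CPM in one library. The 95% intervals of ratios were exact Clopper-Pearson, conditional on a gene's summed reads. Those of levels were exact Poisson, and those of ratios between genes came from the exact conditional odds ratio. All these intervals, and the limit of 3 reads for a gene at 0, cover counting error only. PCR reads without molecular identifiers are not independent molecules, so the intervals may be too narrow even for counting error. With 1 library per group, neither edgeR's nor DESeq2's test was run. The calculation was tested on simulated data with counting error alone and planted changes beyond 2-fold. That test does not cover changes near 2-fold or variation between cultures. The text names all 10 genes and, of each pathway list, the genes of highest and lowest ratio, of highest TPM and past 2-fold. Others were named after their values were seen. Some genes of the lists are not reported here. The 10 genes and the lists were chosen with earlier results of these data known. NEURL1 was matched by its older symbol. Promoters came from RefSeq (GRCh38.p14) by symbol. Python 3.11.15, numpy 2.4.6, scipy 1.17.1, pandas 2.3.3, statsmodels 0.14.6 and matplotlib 3.10.9 were used.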

Additional observations from a re-analysis of the deposited data

How the results depend on the processing

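The ratios were recomputed with upper-quartile scaling, with size factors from DESeq2 1.42.0, with library totals, from deposited TPM (+ 0.1), with a prior count of 5, without a filter, from 5 CPM up, with removal of a trend over relative gene length (lowess, span 0.3), and thresholds of 1.2-fold and 1.5-fold. HES1 stayed at least 2-fold lower under all 8 alternatives that give it a ratio, with log2 ratios from -1.06 to -1.0007 (both filter settings leave the ratio itself as it is). HEY1 reached 2-fold under 3 of 7, with log2 ratios from -1.02 to -0.89, and has under 5 CPM. The count of lower Notch genes was therefore 1 with DESeq2 size factors, library totals, TPM, a prior count of 5 or at least 5 CPM. Counts on TPM rest on the fold alone, without an interval, and those with a prior count of 5 keep the main intervals. At 1.2-fold 1 Notch gene was higher. Of the other 8 genes, NOTCH1 changed sign (0.05 with the length trend removed), and the others kept theirs. In 3 of 78 recomputed ratios the value left the counting interval: NOTCH2 on TPM (0.01) and with the length trend removed (0.14), and JAG2 with it removed (-0.19). In the pathway lists 15 genes were lower and 5 higher at 1.2-fold, and 0 were higher with at least 5 CPM, which leaves NEURL out. MAML3 had log2 ratios from -1.09 to -1.02. Of 17150 genes compared without the filter, 164 were lower and 286 higher, and of 11376 from 5 CPM up 41 and 64. Of the 13131 genes of the main filter, 1635 were lower and 1588 higher at 1.2-fold, and 381 and 426 at 1.5-fold. No paired analysis was possible because each group has 1 library, and none could be left out.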
